A study of Mus musculus with 16 samples.

Results

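Handling of dietary fat in the small intestine was followed through 33 mouse genes among the 55359 gene entries of the count table. These genes were picked by the known function of their products, with earlier results of these data known. They comprised 7 genes of fatty acid uptake and activation, 9 of re-esterification to triglyceride, 11 of chylomicron assembly with its apolipoproteins, the transcription factor gene Creb3l3, and 5 of lipid droplet coating and lipolysis. RNA-seq counts came from the ileum and duodenum of adult C57BL/6N males fed standard chow. Mutants combined floxed Neurog3, a gene that enteroendocrine cells need in order to form, with Villin-CreERT2 (Neurog3f/f; Villin-CreERT2), and controls had the floxed gene without the Cre (Neurog3f/f). Tissue was taken 18 weeks after tamoxifen, and whether the controls received tamoxifen was not stated separately. Each of the 4 mutants (NFVCT27, NFVCT38, NFVCT153, NFVCT190) and 4 controls (NF17, NF29, NF32, NF152) gave a library of each tissue, so that the 16 libraries formed 4 groups of 4. Villin drives the Cre in the gut epithelium, whereas the RNA came from whole pieces of ileum or duodenum, in which fewer cells of a type and less RNA per cell cannot be told apart.

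Enterocytes take up fatty acids and monoacylglycerol released from dietary fat by pancreatic lipase, bind the fatty acids to small cytosolic proteins and activate them to acyl-CoA. At the endoplasmic reticulum, monoacylglycerol is re-esterified to triglyceride, mainly by MOGAT2 followed by DGAT enzymes, while a second route starts from glycerol 3-phosphate and runs through GPAT, AGPAT and lipin enzymes. Microsomal triglyceride transfer protein (MTTP) loads the triglyceride onto apolipoprotein B, and the resulting chylomicron leaves for the lymph in vesicles that need SAR1B. Triglyceride that is not exported is kept in cytosolic droplets coated by perilipins and is released by the lipases PNPLA2 and MGLL. The pathway is known for its high activity in the upper small intestine.

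The libraries held 8213889 to 35076714 counts. Neurog3 had 0 counts in all 8 mutant libraries, against 8 to 27 counts in the control ileum and 12 to 37 in the control duodenum, and the enteroendocrine granule gene Chgb fell by 5.96 (SE 0.20, adjusted p = 3.86e-10) on the log2 scale in the ileum and by 6.67 (SE 0.32, adjusted p = 5.09e-06) in the duodenum. The tissue labels held: the ileal bile acid transporter gene Slc10a2 ranged 918 to 1299 CPM (counts scaled to a common library total) in the mutant ileum and 1069.6 to 1620.4 in the control ileum, against at most 3.27 in any duodenal library, and the duodenal factor gene Gata4 averaged 16.6 and 17.3 CPM in the mutant and control ileum, against 150.0 and 158 in the mutant and control duodenum. A pair of duodenal libraries stood farthest apart for these genes. Mutant NFVCT190 was the lowest of its group in 27 of the 31 testable members, with a median log2 distance of -0.67 from the group median. Control NF29 was the highest of its group in 25 of 31, with a median of 0.47. Mutant NFVCT27 was the highest of the mutant duodenum in 22 of 31, with a median of 0.32. Pancreatic acinar markers took 20.3% of the counts of duodenal NFVCT190, the highest share of any mutant duodenum, and 16.04% in duodenal NF17, the highest of the control duodenum. They took 12.9% in duodenal NFVCT27, 1.96% in NFVCT38, 2.29% in NFVCT153 and 8.45% in duodenal NF29. In what follows, values per library stand in the order NFVCT27, NFVCT38, NFVCT153, NFVCT190 for mutants and NF17, NF29, NF32, NF152 for controls.

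Of the 33 members, 31 had enough counts to be tested. Apoa5, a triglyceride-lowering apolipoprotein made mainly in the liver, had 12 counts over the 16 libraries, and Apoc2, the activator of lipoprotein lipase, had 1. Per kilobase of exon, the scale on which genes can be compared with each other, the highest mean levels over the 16 libraries were those of Apoa1 (2456 CPM per kb), Apoa4 (1412), Fabp1 (1165), Fabp2 (1031), Apob (467) and Mttp (369). The lowest tested member was the phosphatidate phosphatase gene Lpin1, with 2.40 CPM per kb. All 33 members together took 1.11 to 3.83% of the counts of a library, the lowest share in duodenal NFVCT190 and the highest in duodenal NF29. Spread between animals of one group was wider in the duodenum: the median coefficient of variation over members was 15.7% in the mutant ileum and 13.3% in the control ileum, against 26.9% in the mutant duodenum and 23.7% in the control duodenum. The steadiest gene in the duodenum was Gpat4, which encodes an acyltransferase of the glycerol 3-phosphate route, with a coefficient of variation of 4.02% in mutants and 3.68% in controls.

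**Figure D1:**
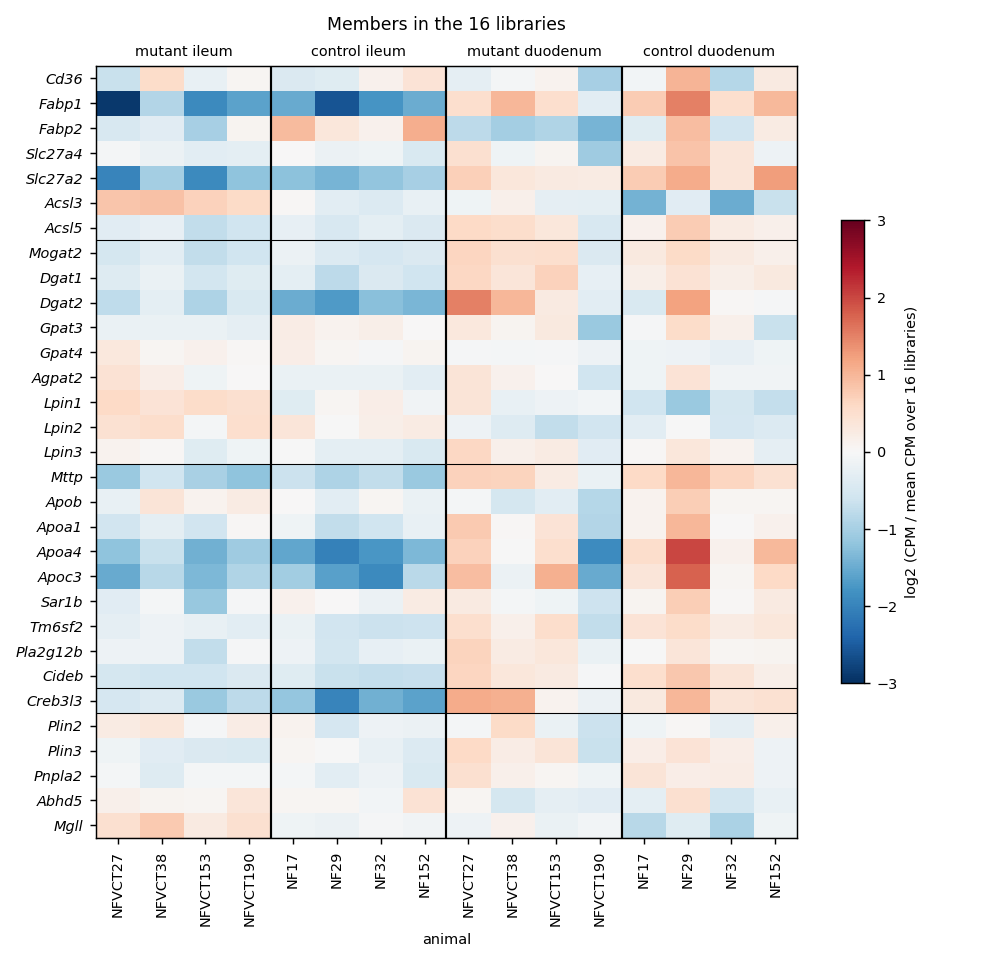
Levels of the 31 tested members (rows, grouped by role with thin lines) in the 16 libraries (columns, named by animal and grouped by genotype and tissue), as the log2 ratio of the CPM to the mean CPM over all libraries. Fabp1, Slc27a2, Apoa4 and Creb3l3 are blue across the ileum, and in the duodenum the column of NF29 is the reddest and that of NFVCT190 the palest or bluest for most members.

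In the mutant ileum, 5 members were higher and 1 was lower than in the control ileum. Acsl3, Dgat2, Mgll, Creb3l3 and Lpin1 rose by 1.44 to 1.93-fold, and Gpat3 fell to 0.776 of the control level (edgeR quasi-likelihood test, Benjamini-Hochberg adjusted p under 0.05 over all 14951 genes tested). Of all genes tested, 3.28% were called, 1.77% as higher and 1.51% as lower. The members' median log2 fold change was 0.08, against -0.01 over all genes, with 22 members above 0 and 9 below. By role, the calls fell on 1 of 7 uptake genes, 3 of 9 re-esterification genes, none of 9 tested assembly genes, Creb3l3, and 1 of 5 droplet genes. Of the assembly genes none passed with edgeR after the filter on low counts or with limma-voom. With that filter edgeR gave 2 of the 9 an unadjusted p under 0.05, against 15.8% of all genes. With no such filter edgeR called 2 of them, Apoa4 and Sar1b, and 3.72% of all genes. The DESeq2 Wald test called Apoa4 among them, and 5.86% of all genes.

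**Figure D2:**
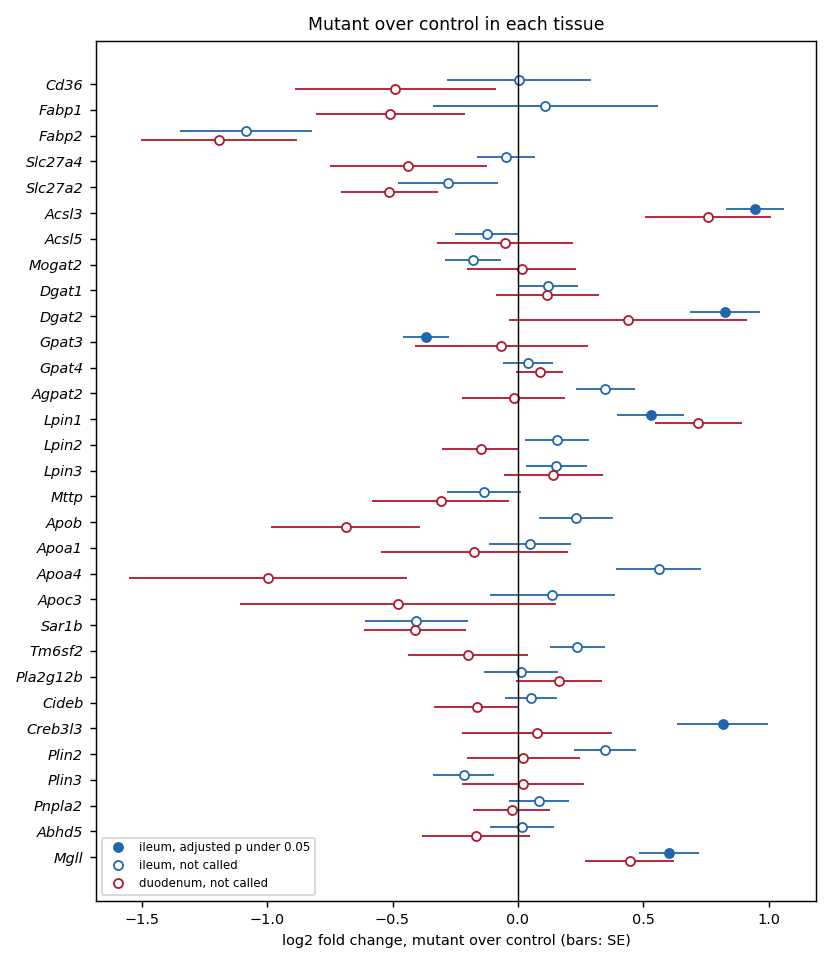
Log2 fold change of each tested member, mutant over control, in the ileum (blue) and the duodenum (red), with bars of 1 SE; filled points passed an adjusted p under 0.05. The 6 filled points are all ileal, the farthest at 0.94 for Acsl3, and no duodenal point passed.

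Acsl3 encodes a long-chain acyl-CoA synthetase of the endoplasmic reticulum and lipid droplets. It had 81.5, 85.3, 75.0 and 68.6 CPM in the mutant ileum, against 47.3, 36.9, 34.6 and 39.7 CPM in the control ileum. Every mutant was above every control, with means of 77.6 ± 7.35 CPM in mutants and 39.6 ± 5.54 CPM in controls (SD, n = 4 each), and the log2 fold change was 0.94 (SE 0.12, adjusted p = 0.000344). Its log2 fold change lay between 0.89 and 1.04 and its call held in all 14 alternative fits. On the same strand Acsl3 overlaps Utp14b in the annotation, and Utp14b also had a positive change in the ileum (log2 fold change 0.61, SE 0.16, adjusted p = 0.0482). Reads of the shared stretch cannot be told apart by gene.

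Dgat2 encodes one of the enzymes that add the last fatty acid of triglyceride. In the mutant ileum it had 173, 239.8, 154 and 215 CPM, against 105, 90.2, 124 and 114 CPM in the control ileum. The groups did not overlap, and the log2 fold change was 0.83 (SE 0.14, adjusted p = 0.00527). The other enzyme of that step, Dgat1, is the re-esterification gene with the highest counts. Dgat1 had 307, 349, 273 and 312 CPM in the mutant ileum, against 329, 235, 299 and 263 CPM in the control ileum, groups that overlapped, and the log2 fold change was 0.12 (SE 0.12, adjusted p = 0.705). Mogat2, which starts the monoacylglycerol route, had a log2 change of -0.18 (SE 0.11, adjusted p = 0.482), also with overlap. Whether the changes of Dgat2 and Dgat1 differ from each other was not tested.

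In the glycerol 3-phosphate route, Gpat3 catalyses the first acylation and the lipins remove the phosphate before the last one. Gpat3 had 104, 105, 105 and 101 CPM in the mutant ileum, against 140.1, 131, 135 and 121 CPM in the control ileum. All mutants were below all controls, with little spread among mutants (log2 fold change -0.37, SE 0.09, adjusted p = 0.0408). Lpin1 had 35.1, 30.6, 34.0 and 32.1 CPM in the mutant ileum and 18.0, 24.1, 26.5 and 21.6 CPM in the control ileum, again without overlap and in the other direction (log2 fold change 0.53, SE 0.14, adjusted p = 0.0466). Each call was lost in 7 of the 8 fits that left out 1 ileal library, with adjusted p up to 0.117 for Gpat3, whose call was kept without control NF152, and up to 0.136 for Lpin1, kept without control NF32. The Gpat3 call was also lost with no filter on low counts (adjusted p = 0.0516). Their direction held in all of these fits. Of the other members of this route, Gpat4, Lpin2 and Lpin3 had log2 fold changes of 0.04, 0.16 and 0.15, and Agpat2, whose groups did not overlap either, had one of 0.35 (SE 0.12, adjusted p = 0.136).

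Creb3l3 encodes a membrane-bound transcription factor of liver and small intestine that acts on lipid and apolipoprotein genes. It had 176, 187, 114 and 142 CPM in the mutant ileum, against 111, 62.9, 90.2 and 81.3 CPM in the control ileum. The lowest mutant, NFVCT153, lay just above the highest control, NF17, and the log2 fold change was 0.82 (SE 0.18, adjusted p = 0.0362). The call was lost without mutant NFVCT27, NFVCT38 or NFVCT190 or without control NF32 or NF152, with adjusted p up to 0.115 and log2 fold changes of 0.70 to 0.95 over the fits that left out 1 library. Mgll, the lipase that splits monoacylglycerol, had 42.2, 52.4, 36.9 and 42.6 CPM in the mutant ileum, against 27.8, 27.04, 29.7 and 28.5 CPM in the control ileum, where the values were close together. Its log2 fold change was 0.60 (SE 0.12, adjusted p = 0.012), and the call was lost without mutant NFVCT38 (adjusted p = 0.0539). The other droplet genes overlapped between genotypes; Plin2, a droplet coat protein, had a log2 change of 0.35 (SE 0.12, adjusted p = 0.163).

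**Figure D3:**
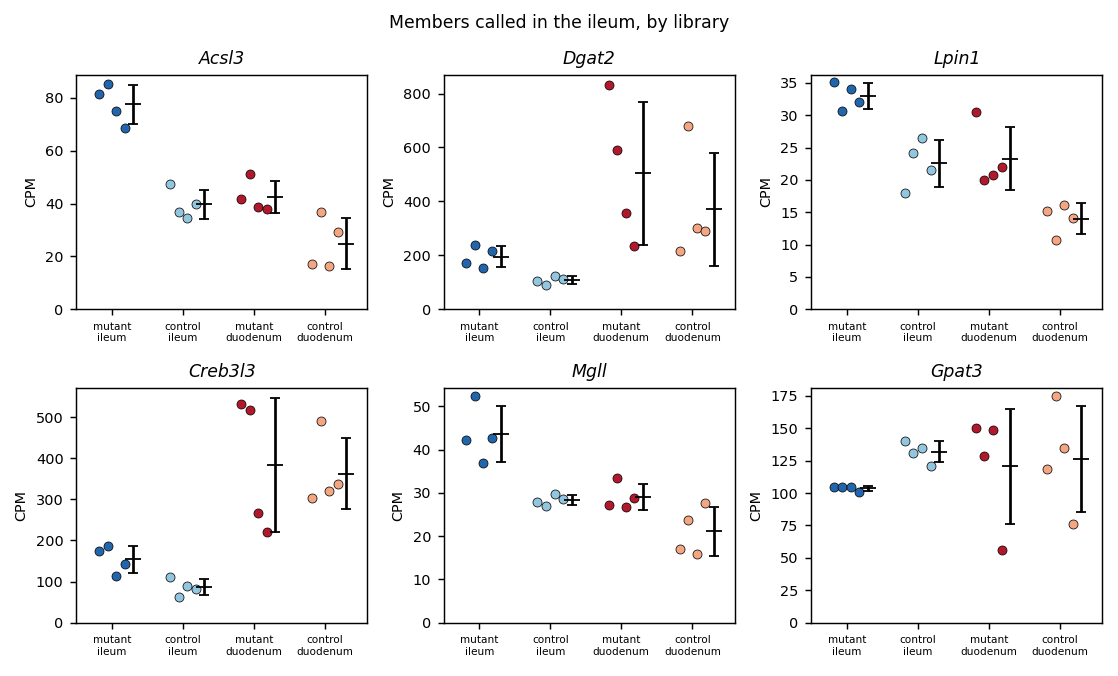
CPM of the 6 members called in the ileum, 1 point per library (mutant ileum, control ileum, mutant duodenum, control duodenum from left to right), with the mean and SD of each group as a bar to the right of its points. In the ileum the mutant points of Acsl3, Dgat2, Lpin1, Creb3l3 and Mgll lie above all control points and those of Gpat3 below, while in the duodenum only Acsl3 and Lpin1 separate the genotypes.

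The starts of 5 of these 6 genes are shown because these genes carried the ileal calls, Gpat3 as lower and the others as higher in mutants; the sequences are the 250 bases before the annotated start in RefSeq, build GRCm38.p6, written 5′ to 3′ on the strand of the gene, with matches to 5 searched motifs in capitals. Searched on both strands were an E-box (CACGTG), a cyclic AMP response element core (TGACGT), a nuclear receptor half-site (AGGTCA), a core promoter element with the letters TATAAA and the CCAAT box. No capitals below belong to more than one motif.
Acsl3, chr1:78657575-78657824, plus strand: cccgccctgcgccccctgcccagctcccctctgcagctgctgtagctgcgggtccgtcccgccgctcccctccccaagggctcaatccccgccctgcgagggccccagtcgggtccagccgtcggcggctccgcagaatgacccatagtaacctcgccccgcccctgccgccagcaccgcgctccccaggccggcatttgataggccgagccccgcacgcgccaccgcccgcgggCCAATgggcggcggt
Lpin1, chr12:16610967-16611216, minus strand: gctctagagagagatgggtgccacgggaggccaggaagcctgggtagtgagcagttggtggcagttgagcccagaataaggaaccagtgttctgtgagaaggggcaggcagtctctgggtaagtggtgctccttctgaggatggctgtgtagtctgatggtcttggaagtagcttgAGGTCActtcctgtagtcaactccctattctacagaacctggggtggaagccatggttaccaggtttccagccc
Creb3l3, chr10:81092592-81092841, minus strand: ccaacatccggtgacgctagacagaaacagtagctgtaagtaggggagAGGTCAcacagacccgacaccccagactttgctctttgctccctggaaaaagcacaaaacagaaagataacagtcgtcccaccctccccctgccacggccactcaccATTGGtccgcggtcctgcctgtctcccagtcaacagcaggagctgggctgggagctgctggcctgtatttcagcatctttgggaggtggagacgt
Mgll, chr6:88724162-88724411, plus strand: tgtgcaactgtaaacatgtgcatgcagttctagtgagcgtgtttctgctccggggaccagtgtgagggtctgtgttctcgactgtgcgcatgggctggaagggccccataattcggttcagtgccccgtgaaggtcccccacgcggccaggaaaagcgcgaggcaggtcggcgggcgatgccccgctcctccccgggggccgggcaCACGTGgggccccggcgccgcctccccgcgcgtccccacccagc
Gpat3, chr5:100845979-100846228, plus strand: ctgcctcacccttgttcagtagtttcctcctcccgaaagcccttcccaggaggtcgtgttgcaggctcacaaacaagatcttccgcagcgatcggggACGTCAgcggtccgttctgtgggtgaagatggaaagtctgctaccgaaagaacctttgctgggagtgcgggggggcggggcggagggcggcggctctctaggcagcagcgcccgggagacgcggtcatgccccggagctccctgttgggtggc
The capitals mark a CCAAT match 15 bases before the start of Acsl3, a half-site 74 bases before that of Lpin1, a half-site 202 and a reversed CCAAT 95 bases before that of Creb3l3, an E-box 44 bases before that of Mgll, and a reversed cyclic AMP response element core upstream of that of Gpat3. Creb3l3 and Mgll each have another annotated start, whose window held no match. No motif matched in all 5 windows. Among the 27 members with a promoter in the table, the E-box matched 3, the cyclic AMP response element core 2, the half-site 8, TATAAA 4 and CCAAT 9. Among all 27025 genes of the table the same motifs matched 6.86, 7.29, 15.8, 14.3 and 37.5%. A match describes these letters in this window and shows no binding.

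Fabp2, the intestinal fatty acid binding protein, had the largest difference of all members between genotypes in the ileum but did not pass; it is described in detail after its values were seen. It had 709, 784, 501 and 1057 CPM in the mutant ileum, against 1908, 1256, 1096 and 2118 CPM in the control ileum, and 579, 494, 529 and 379.9 CPM in the mutant duodenum, against 776, 1893, 663 and 1171 CPM in the control duodenum. In each tissue every mutant was below every control, although the highest ileal mutant, NFVCT190, lay close to the lowest ileal control, NF32. The log2 fold changes were -1.08 (SE 0.26, adjusted p = 0.0669) in the ileum and -1.19 (SE 0.31, adjusted p = 0.166) in the duodenum. The DESeq2 Wald test called it in both (adjusted p = 0.000129 in the ileum and 0.00525 in the duodenum), as did limma-voom in the ileum alone (0.0364). With edgeR it passed in the ileum without mutant NFVCT190 (0.0256), without control NF32 (0.0444) or with no filter on low counts (0.0169). Fabp1, the liver-type binding protein that enterocytes also make, showed no such difference in the ileum (87.2, 351, 172 and 212 CPM in mutants and 227, 108, 188 and 229 CPM in controls, log2 fold change 0.11, SE 0.45, adjusted p = 0.951).

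The remaining uptake and assembly genes overlapped between genotypes in the ileum. Acsl5, the acyl-CoA synthetase gene with the highest counts, had 1069, 1128, 804 and 885 CPM in mutants and 1128, 955, 1099 and 989 CPM in controls. The surface fatty acid receptor gene Cd36 had a log2 fold change of 0.00 (SE 0.29), and the fatty acid transport protein genes Slc27a4 and Slc27a2 had -0.05 (SE 0.12) and -0.28 (SE 0.20). Apob, the structural protein of the chylomicron, had 5614, 8434, 7031 and 7737 CPM in the mutant ileum, against 6537, 5229, 6739 and 5669 CPM in the control ileum. Apoa4, an apolipoprotein released with chylomicrons, had 1115, 1620.2, 945 and 1218 CPM in mutants and 872, 627, 762 and 1008 CPM in controls, where only the lowest mutant lay within the control range (log2 fold change 0.56, SE 0.17, adjusted p = 0.096). With no filter on low counts its adjusted p was 0.000378, and with the DESeq2 Wald test 0.0295. The other 7 tested assembly genes lay between -0.40 for Sar1b, a GTPase of the vesicles that carry chylomicrons out, and 0.24 for Tm6sf2, a membrane protein of lipoprotein lipidation, with adjusted p of 0.315 or more, although Sar1b passed with no filter on low counts (adjusted p = 0.0248). Mttp was among them (log2 fold change -0.13, SE 0.15, adjusted p = 0.737).

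Marker genes of several cell types moved with genotype in the ileum beside these members. Summed smooth muscle markers were 4269 to 5947 CPM in mutants and 2472 to 3607 CPM in controls, with 6 of 9 markers called higher and none at 0. Goblet cell markers summed to 16742 to 23044 CPM in mutants and 12165 to 16069 CPM in controls (2 of 5 called higher), crypt and cycling markers to 767 to 1003 CPM in mutants and 1203 to 1458 CPM in controls (1 of 4 called lower). Markers of distal identity summed to 2092 to 3373 CPM in mutants and 3710 to 6081 CPM in controls (none of 5 called). Among them Fabp6 averaged 795 CPM in mutants and 3016 CPM in controls, whereas Slc10a2 averaged 1192 and 1245 CPM. Over the 5 distal markers the median log2 fold change was -0.14, with 1 above 0 and 4 below. T cell markers summed to 8.48 to 27.8 CPM in mutants and 30.2 to 36.5 CPM in controls (2 of 5 called lower). For each of the 5 sums above, from smooth muscle to T cell markers, the exact permutation test (two-sided, unadjusted) gave p = 0.0286, the smallest that 4 against 4 allows. Enteroendocrine markers gave the same p in that test. It gave larger p for macrophage (0.114), proximal identity (0.229), endothelial (0.343), Paneth (0.371), B and plasma cell (0.429) and acinar markers (0.514). Enterocyte markers, the cells in which these genes act, summed to 10307 to 11433 CPM in mutants and 11195 to 13436 CPM in controls (p = 0.0857, exact permutation test), with 1 of 8 called lower. Adipocyte markers, cells that also express Dgat2, Lpin1 and Mgll, summed to 132 to 167 CPM in mutants and 58.7 to 160.4 CPM in controls (p = 0.257, exact permutation test), with none of 8 called and none at 0. Of these 8, 5 had a log2 fold change above 0 and 3 below. Cidec averaged 50.9 CPM in mutants and 30.4 CPM in controls, whereas Adipoq averaged 10.4 and 11.2 CPM. Cidec, Plin1 and Plin4 are also among the other droplet genes described below. The part of these cell types in the changes of the members was not tested.

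No member was called in the mutant duodenum against the control duodenum. In that tissue 0.394% of the 14703 genes tested were called by edgeR, and 6 members had an unadjusted p under 0.05, against 8.71% of all genes. The DESeq2 Wald test called 2 members, Fabp2 and Lpin1, and 2.11% of all genes, and limma-voom called no member. The median log2 fold change was -0.07 over the members, against -0.00015 over all genes, with 12 members above 0 and 19 below. Of the 7 uptake genes 6 were below 0 (median -0.49), as were 8 of 9 tested assembly genes (median -0.31), whereas 6 of 9 re-esterification genes were above 0 (median 0.09). Of the libraries that stood apart, NFVCT190 was the lowest mutant duodenum in 27 of 31 members and NF29 the highest control duodenum in 25. Leaving them out, a choice made after seeing these values, raises most changes by construction, so the direction of the shift is not informative. In the fit without them, which kept NFVCT27, the median over all members was 0.20 and again no member was called. In that fit 4 of 7 uptake genes (median -0.015) and 4 of 9 assembly genes (median 0.055) were below 0, and 8 of 9 re-esterification genes were above it (median 0.33).

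Among members called in the ileum, Lpin1 and Acsl3 also separated the genotypes in the duodenum. Lpin1 had 30.5, 19.9, 20.8 and 21.9 CPM in the mutant duodenum, against 15.2, 10.6, 16.1 and 14.1 CPM in the control duodenum (log2 fold change 0.72, SE 0.18, adjusted p = 0.128). Lpin1 passed in the DESeq2 Wald test, in a fit over all 16 libraries (adjusted p = 0.0283) and with no filter on low counts (0.0175). Acsl3 had 41.9, 51.1, 38.5 and 37.8 CPM in the mutant duodenum, against 17.2, 36.7, 16.4 and 29.1 CPM in the control duodenum, where NF29 came close to the lowest mutant (log2 fold change 0.76, SE 0.25, adjusted p = 0.346). Mgll had 27.3, 33.5, 26.7 and 28.8 CPM in mutants and 17.03, 23.8, 15.8 and 27.8 CPM in controls, and the groups overlapped at control NF152 (log2 fold change 0.45, SE 0.18, adjusted p = 0.459). The other 3 overlapped widely. Dgat2 had 833, 589, 357 and 235 CPM in mutants and 214, 678, 300.1 and 289 CPM in controls (log2 fold change 0.44, SE 0.48, adjusted p = 0.898), Creb3l3 had 532, 518, 268 and 219.6 CPM in mutants and 302, 491, 321 and 337 CPM in controls (log2 fold change 0.08, SE 0.30, adjusted p = 0.984), and Gpat3 had 150.1, 128, 148 and 55.6 CPM in mutants and 118, 175, 135 and 76.2 CPM in controls (log2 fold change -0.07, SE 0.34, adjusted p = 0.988). Within each genotype Dgat2 spanned a wider range in the duodenum than its whole ileal range.

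Apob had 6259, 4537, 5216 and 3596 CPM in the mutant duodenum, against 7039, 10865, 6813 and 6734 CPM in the control duodenum. Every mutant was below every control, but the change did not pass (log2 fold change -0.69, SE 0.30, adjusted p = 0.535), and its log2 value was -0.38 without NFVCT190 and NF29. Apoa4 had 4128, 2524, 3628 and 697 CPM in the mutant duodenum, against 3720.4, 10306, 2800.1 and 5034 CPM in the control duodenum. Its lowest value was that of NFVCT190 and its highest that of NF29, and its log2 change, -0.998 (SE 0.55, adjusted p = 0.691), became -0.18 without those libraries. Apoa1, the main protein of high-density lipoprotein and also carried by chylomicrons, had 5215, 3087, 4060.0 and 1652 CPM in mutants and 3289, 6071, 3071 and 3328 CPM in controls (log2 fold change -0.17, SE 0.37), with the same libraries at the ends of the range, and a log2 fold change of 0.34 without them. Because these libraries held the lowest mutant and highest control values of Apob, Apoa4 and Apoa1, leaving them out raises the changes by construction. Apoa1, Apoc3, Apoa4 and Apoa5 lie next to each other on chromosome 9. Duodenal acinar markers summed to 19550 to 225905 CPM in mutants and 70360 to 187683 CPM in controls (exact permutation test, two-sided, p = 0.914), with all 16 detected in both genotypes, and enterocyte markers to 7687 to 15420 CPM in mutants and 10751 to 16343 CPM in controls (p = 0.571, exact permutation test). The lowest enterocyte sum was that of NFVCT190. T cell markers, at 13.4 to 29.3 CPM in mutants and 43.7 to 59.4 CPM in controls, and macrophage markers, at 153.04 to 266 CPM in mutants and 284 to 297 CPM in controls, were lower in every mutant duodenum (exact permutation test, two-sided, p = 0.0286 for each). The part of these cells in the duodenal values was not tested.

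**Figure D4:**
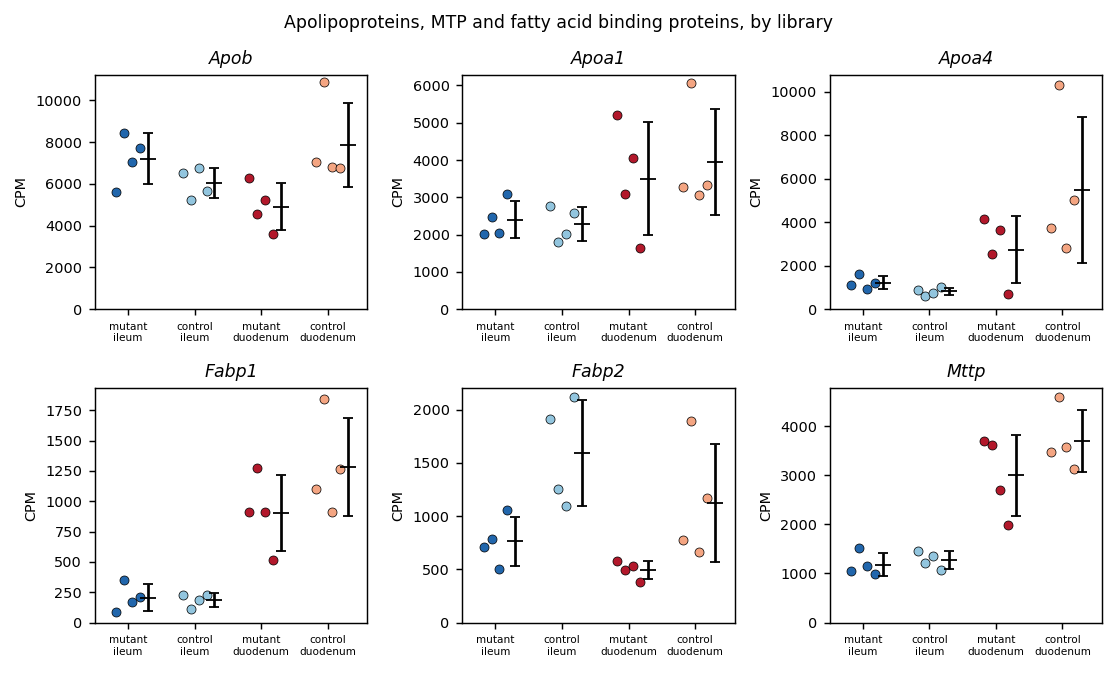
CPM of 3 apolipoprotein genes, both fatty acid binding protein genes and Mttp, 1 point per library in the order mutant ileum, control ileum, mutant duodenum, control duodenum, with group mean and SD. Fabp2 is lower in mutants than in controls in both tissues without overlap, and the highest control duodenum point of Apob, Apoa1 and Apoa4 is NF29.

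The genotype effect itself was compared between tissues with an interaction term over all 16 libraries. No member was called by edgeR, against 0.0441% of 15882 genes, and 2 members, Apob and Apoa4, had an unadjusted p under 0.05, against 4.41% of all genes. DESeq2 and limma-voom also called none. For Apob the effect in the ileum minus that in the duodenum was 0.94 (SE 0.31) on the log2 scale, with an adjusted p of 0.744, and without NFVCT190 and NF29 it was 0.62. For Apoa4 it was 1.58 (SE 0.64) with an adjusted p of 1, and 0.76 without those libraries. Both genes are named after their values were seen. For the 6 members called in the ileum, the differences on the log2 scale were 0.20 (SE 0.28) for Acsl3, 0.41 (SE 0.54) for Dgat2, -0.17 (SE 0.22) for Lpin1, 0.17 (SE 0.22) for Mgll, -0.28 (SE 0.36) for Gpat3 and 0.76 (SE 0.39) for Creb3l3. Without NFVCT190 and NF29 the sign turned for Acsl3 (-0.088) and Dgat2 (-0.29), and the difference was -0.72 for Gpat3, -0.087 for Lpin1, 0.11 for Mgll and 0.39 for Creb3l3, none of them called. As leaving out NFVCT190 and NF29 raises most duodenal changes by construction, it also lowers most of these differences. With all libraries, the genotype effects had the same sign in both tissues in 17 of 31 members. A call in the ileum and none in the duodenum does not show that the effect differs between them.

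Along the gut of control mice, 16 of the 31 tested members were lower and 2 higher in the ileum than in the duodenum. The test did not pair the tissues of each mouse, and it called 18.7% of 14976 genes lower and 17.1% higher, 35.9% together. With the animal as a block, Acsl3, Gpat4 and Mgll were also called higher and Plin3 lower, and no call was lost. Without the block, calls of lower expression covered 7 of 9 tested assembly genes, 4 of 7 uptake genes, 3 of 9 re-esterification genes, Creb3l3 and the triglyceride lipase gene Pnpla2. In the 8 fits that left out 1 control library, 12 to 18 members were called lower, and 14 of the 18 calls held in all 8. The call of Slc27a4 was kept only without ileal NF17 or duodenal NF152 and was lost with limma-voom, and that of Pnpla2 was lost without duodenal NF17 or NF32 or ileal NF29 or NF152. Apoa1 lost its call without duodenal NF29 or ileal NF29 or NF32, and Pla2g12b, a secreted phospholipase-like protein, without NF29 of either tissue. The members' median log2 fold change was -0.40. The largest log2 fold changes were those of Fabp1 (-2.76, SE 0.28), Apoa4 (-2.74, SE 0.39), Apoc3 (-2.13, SE 0.46), Slc27a2 (-2.10, SE 0.18), Creb3l3 (-2.07, SE 0.20) and Dgat2 (-1.77, SE 0.36). All 6 separated the tissues without overlap. Fabp1 had 227, 108, 188 and 229 CPM in the control ileum, against 1098, 1846, 909 and 1267 CPM in the control duodenum. Apoa4, given above for both tissues, averaged 817 ± 162 CPM in the control ileum and 5465 ± 3355 CPM in the control duodenum (SD, n = 4 each). Cell type markers also differed between the tissues. In the control ileum all 16 acinar markers were called lower than in the control duodenum, and 8 of 9 smooth muscle markers higher. Of 7 tested adipocyte markers 6 were higher and 1 lower, and of 8 enterocyte markers 4 were higher and 1 lower. In mutants all 16 acinar markers were lower and 8 of 9 smooth muscle markers higher. The part of these cells in the tissue differences of the members was not tested.

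Apoc3, an inhibitor of lipoprotein lipase, had 56.3, 37.9, 30.9 and 66.7 CPM in the control ileum, against 151, 399, 121 and 176 CPM in the control duodenum. Slc27a2, a very long-chain acyl-CoA synthetase, had 42.9, 38.7, 44.6 and 50.5 CPM in the control ileum, against 173, 218, 129.8 and 239.7 CPM in the control duodenum. The lowest duodenal control lay well above the highest ileal one for both. Mttp followed with a log2 change of -1.53 (SE 0.18, adjusted p = 3.31e-05), and Cideb, a protein of lipoprotein lipidation, with one of -1.09 (SE 0.14, adjusted p = 4.91e-05). Acsl5 had 1472, 2263, 1591 and 1491 CPM in the control duodenum, all above its ileal control values given earlier (log2 fold change -0.71, SE 0.17, adjusted p = 0.00616), and Dgat1 likewise had 449.8, 543, 452 and 495 CPM in the control duodenum (log2 fold change -0.78, SE 0.13, adjusted p = 0.00054). Apob, with a log2 change of -0.38 (SE 0.22, adjusted p = 0.195), was not among the calls, nor was Plin3, the droplet coat gene with the highest counts (301, 285, 246 and 218 CPM in the control ileum and 330.1, 385, 333 and 259.8 CPM in the control duodenum, log2 fold change -0.31, SE 0.14, adjusted p = 0.105). Plin3 passed with the animal as a block, which pairs the ileum and duodenum of each mouse (adjusted p = 0.0395).

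Without pairing by animal, a pair of lipin genes were the members called higher in the control ileum. Lpin1 was higher in the control ileum than in the control duodenum, with every ileal value above every duodenal one (log2 fold change 0.68, SE 0.16, adjusted p = 0.00448). Lpin2 had 165, 127, 144 and 152.93 CPM in the control ileum, against 103, 128, 90.6 and 96.7 CPM in the control duodenum, where NF29 of the duodenum just exceeded NF29 of the ileum (log2 fold change 0.50, SE 0.13, adjusted p = 0.0073). The third lipin gene, Lpin3, did not pass (log2 fold change -0.32, SE 0.14, adjusted p = 0.0847).

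In mutants, 10 members were lower and 5 higher in the ileum than in the duodenum, where 17.1% of 14950 genes were called lower and 15.2% higher, 32.3% together. All 10 of the lower calls and 2 of the higher ones, Lpin1 and Lpin2, were also calls in controls, and no member was called in opposite directions. The 3 called in mutants and not in controls without pairing by animal were Acsl3 (log2 fold change 0.85, SE 0.13, adjusted p = 0.000457), Mgll (log2 fold change 0.56, SE 0.13, adjusted p = 0.00699) and Abhd5, the coactivator of PNPLA2 (log2 fold change 0.40, SE 0.14, adjusted p = 0.048). In controls Acsl3 and Mgll had log2 fold changes of the same sign, 0.68 (SE 0.25, adjusted p = 0.0616) and 0.42 (SE 0.16, adjusted p = 0.0602), and with the animal as a block both passed there too (adjusted p = 0.0455 for Acsl3 and 0.0466 for Mgll). The Abhd5 call in mutants was kept only without duodenal NFVCT27 among the 8 fits that left out 1 library, with adjusted p up to 0.137, and was lost with no filter on low counts (0.0773). In the same 8 fits Pla2g12b kept its call only without duodenal NFVCT190, Acsl5 lost it in 5 and Lpin1 in 4, and the other 11 calls held. Of those 11, Dgat2 had an adjusted p of up to 0.05 (rounded) in these fits and lost its call with no filter on low counts (0.0785). With the animal as a block Pla2g12b lost its call as well. The 6 called in controls and not in mutants were Slc27a4, Apoa1, Apoa4, Apoc3, Tm6sf2 and Pnpla2, and all had negative log2 fold changes in mutants. Apoa4, for example, had a log2 change of -1.18 (SE 0.45, adjusted p = 0.0735) in mutants, and its value in duodenal NFVCT190 lay below every ileal mutant value. Without duodenal NFVCT190, 22 members and 35.5% of all genes were called in mutants, among them Apoa1, Apoa4, Apoc3, Tm6sf2 and Pnpla2. The interaction term above is also the test of whether these tissue differences differ between genotypes, and it called no member.

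**Figure D5:**
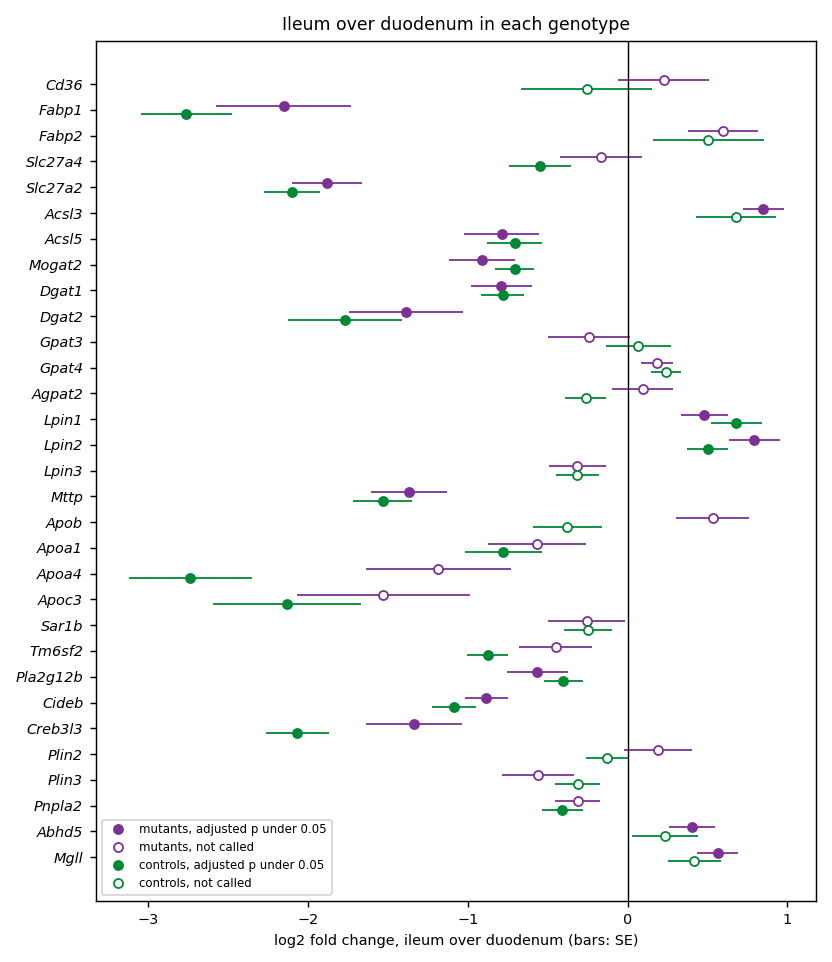
Log2 fold change of each tested member, ileum over duodenum, in mutants (purple) and controls (green), with bars of 1 SE; filled points passed an adjusted p under 0.05. Fabp1 is farthest left in both genotypes (-2.15 in mutants and -2.76 in controls), and the filled points to the right of 0 are Lpin1 and Lpin2 in both and Acsl3, Mgll and Abhd5 in mutants.

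Other genes of the same pathway were also called in the ileum and not in the duodenum by edgeR. In the ileum, the lists of other uptake and activation genes, other triglyceride synthesis genes, other assembly and export genes, other droplet genes and regulators had 2 of 11, 1 of 7, none of 17, none of 12 and 1 of 18 tested genes called by edgeR, each of them higher in mutants. Together these were 4 of 65 genes (6.15%), beside the 3.28% of all genes given above. The lists were chosen with earlier results of these data known, so these shares are not an independent comparison. Slc27a1, a fatty acid transport protein better known from muscle and fat, had 14.1, 14.1, 9.54 and 12.1 CPM in the mutant ileum, against 7.31, 6.78, 7.98 and 7.22 CPM in the control ileum (log2 fold change 0.75, SE 0.16, adjusted p = 0.0174). Acsl1, a long-chain acyl-CoA synthetase, had 84.0, 94.5, 80.1 and 88.0 CPM in mutants and 57.3, 45.2, 66.1 and 70.5 CPM in controls (log2 fold change 0.51, SE 0.13, adjusted p = 0.0418). Agpat3, an acyltransferase of phospholipid and triglyceride synthesis, had 66.0, 75.7, 68.4 and 72.5 CPM in mutants and 53.1, 39.4, 53.2 and 56.5 CPM in controls (log2 fold change 0.46, SE 0.12, adjusted p = 0.0444). None of the 3 overlapped between genotypes. In the 8 fits that left out 1 ileal library, the call of Agpat3 was lost in all 8, that of Acsl1 in 7 (kept without control NF152) and that of Slc27a1 in 3 (without mutant NFVCT27 or NFVCT38 or control NF17), with adjusted p up to 0.148, 0.141 and 0.0735. Of the 18 regulators, Mlxipl, the carbohydrate-responsive factor ChREBP, was called, with 44.8, 39.1, 57.6 and 39.4 CPM in the mutant ileum and 25.3, 18.3, 24.2 and 19.4 CPM in the control ileum (log2 fold change 1.03, SE 0.16, adjusted p = 0.00227), and its call held in all 8 of these fits. The difference of its genotype effect between tissues, ileum minus duodenum, was 1.12 (SE 0.21, adjusted p = 0.0609) on the log2 scale. In the duodenum and in the interaction edgeR called no gene of these 5 lists; with an unadjusted p under 0.05 there were 7 of 67 tested genes in the duodenum (10.4%, against 8.71% of all genes) and 6 of 69 in the interaction (8.70%, against 4.41%). In the ileum the DESeq2 Wald test called 11 of the 65 genes, 10 higher and 1 lower, against 5.86% of all genes. Beside Agpat3, Mlxipl, Acsl1 and Slc27a1 these were Ppard, Gpam, Cidec, Apobec1, Gucy2c, Mia3 and Fabp6. In the same tissue limma-voom called 3, against 2.89% of all genes: Mlxipl and Slc27a1 as higher and Fabp6 as lower, but neither Acsl1 nor Agpat3. Fabp6, the bile acid binding protein of the ileum, had 1308, 949, 583 and 338 CPM in the mutant ileum, against 3211, 4132, 1954 and 2768 CPM in the control ileum, without overlap, and was not called by edgeR (log2 fold change -1.95, SE 0.46, adjusted p = 0.0864). The DESeq2 Wald test called 2 in the duodenum, Slc27a1 and Srebf2, and 1 in the interaction, Mlxipl, against 2.11 and 0.24% of all genes, while limma-voom called none in either.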

How the data were processed

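Total RNA depleted of ribosomal RNA was sequenced with a stranded kit, per the labels' protocols. The submitters' processing notes name STAR 2.5.3a, HTSeq 0.6.1p1, cutadapt 1.10, Bowtie2 2.2.8 and bcl2fastq 2.20.0.422, and build mm39, and neither the annotation release nor the strand setting of the counting is stated there. The authors deposited raw counts per gene for the 16 libraries, one table with no normalization and 8213889 to 35076714 counts per library. Symbols were matched to 52083 of 55359 gene IDs, which held 98.3% of the counts. Exon lengths, overlaps and gene neighbours came from GENCODE M21 (GRCm38) and promoters from RefSeq (GRCm38.p6).

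Counts were tested with edgeR 4.0.16 (R 4.3.3; quasi-likelihood F test, robust, TMM scaling, filterByExpr by group), with the 8 libraries of the groups compared or all 16 for the interaction; limma 3.58.1 and DESeq2 1.42.0 served as alternatives. p-values were adjusted over all genes tested (Benjamini-Hochberg) and called under 0.05. CPM values use TMM library sizes over all 16 libraries, and SE is the log2 fold change divided by the root of F. The test was also run on counts simulated from the spread fitted to these data, which does not show how it behaves on the real libraries. Each library is from 1 animal per tissue.

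The same animal gave both tissues, per the labels. Deviations of its ileum and duodenum from their group means correlated at 0.127 to 0.327. Its duodenum and the ileum of any other animal of the same genotype correlated at 0.0821 at most, so the animal pairs the tissues. The members and lists were chosen with earlier results of these data known. Described by library were members called for genotype, those with the highest counts in their role and those with the largest control tissue differences (up to 6 each way). Genes of the other lists were named when called. Alternatives were other scaling, filter and tools, a fit over all libraries, the animal as a block, marker genes left out, and libraries left out.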

Additional observations from a re-analysis of the deposited data

Results flagged for a closer look

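In 10 of 124 groups of 4 libraries checked, over the 31 tested members, 1 library lay far from the other 3 relative to the range of its group; chance flags about 1 in 20 groups, or 6.2 here. Control NF29 was the highest of the control duodenum in 4 of them: 2263 CPM for Acsl5 (others 1472 to 1591), 257 CPM for Agpat2, 10865 CPM for Apob and 6071 CPM for Apoa1. In the control ileum, NF17 was highest for Tm6sf2 (194 CPM) and Cideb (67.5 CPM), and NF152 was lowest for Agpat2 (156 CPM). In the mutant ileum, NFVCT190 was lowest for Gpat3 at 101 CPM, beside 3 libraries at 104 to 105 CPM, NFVCT153 was lowest for Lpin2 (124 CPM) and NFVCT38 was lowest for Pnpla2 (65.5 CPM). Of these members only Gpat3 was called for genotype.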

How the results depend on the processing

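In the ileum 6 members were called, against 2 (Acsl3 and Mgll) in a fit over all 16 libraries with a shared spread, 8 with no filter on low counts (Fabp2, Apoa4 and Sar1b gained, Gpat3 lost), and 2 to 5 when 1 library was left out, with 3 without NFVCT27 and 2 without NFVCT38. In the fit over all 16 libraries Dgat2 had an adjusted p of 0.337 and Gpat3 one of 0.622. Of all genes tested in the ileum 3.28% were called, against 2.41% in the fit over all 16 libraries. The share was 3.72% with no filter and 1.79 to 3.04% when 1 library was left out. In the duodenum no member was called, against 1 (Lpin1) with no filter on low counts, 2 (Fabp2 and Lpin1) with DESeq2, 1 (Lpin1) in the fit over all 16 libraries, and 0 to 0 when 1 library was left out. Of all genes tested in the duodenum 0.394% were called, against 0.578% with no filter and 2.11% with DESeq2. The share was 0.951% in the fit over all 16 libraries and 0.181 to 0.41% when 1 library was left out. For the interaction every alternative gave 0 calls, also with the animal as a replicate block. Tissue calls in controls numbered 14 to 21 (28 to 36.2% of all genes) when 1 library was left out, against 18 (35.9%) with all libraries. In mutants tissue calls numbered 11 to 22 (24.5 to 35.5% of all genes), against 15 (32.3%). With the animal as a replicate block they numbered 22 in controls, where Acsl3, Gpat4, Plin3 and Mgll were gained, and 14 in mutants, where Pla2g12b was lost; the block changed no other call. No paired analysis was possible because the genotypes share no animal for tests within a tissue. Leaving out NFVCT190 and NF29 from the duodenum was chosen after seeing the members' values, and it raises most duodenal changes by construction. No called member reversed under any of these alternatives, while 49 of 496 uncalled duodenal fits changed sign. The causes were not tested. Precision is limited by 4 animals a group, by the duodenal spread, and for Apoa5 and Apoc2 by counts too low to test.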
